A study of Mus musculus with 9 samples.

Results

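Antibody heavy and light chain genes were read in RNA from mouse brain tissue around an infarct. A gene was taken as a member when its name begins with Ighv, Igkv or Iglv, the variable (V) segments of the heavy, kappa and lambda loci, or when it is 1 of 11 named constant-region genes or Jchain, and when its deposited counts summed to at least 100 over all 9 libraries. Of 360 rows with such names, among 55401 rows in the table, 202 had a count and 114 reached that total: 44 Ighv, 56 Igkv and 2 Iglv segments, the 11 constant regions and Jchain. The total chose the members, so a gene high in any group was favoured. Just inside the limit stood Igkv8-27 with 104 counts, Igkv13-84 with 101 and Ighv5-17 with 100, and just outside it Igkv5-45 with 93, Ighv1-19 with 93 and Ighv10-3 with 92. All 11 constant regions and Jchain that were asked for were members, and 88 rows with a count fell below the total.

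Tissue was taken 28 days after surgery from 3 groups of wild-type mice with 3 libraries each. Sham-operated mice (Sham) and mice with a photothrombotic infarct (PT), in which illumination of a dye in the blood blocks vessels of the cortex, received ultrapure water. A further group with the same infarct received Pushen, a marketed oral preparation, at labelled doses of 391, 392 and 393 mg/kg in libraries 1, 2 and 3, treated here as a single group. Gavage began 24 h after surgery in every group. The labels do not say whether libraries came from separate or pooled animals, so the p-values speak only of the scatter among these libraries, part of which may be technical.

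An antibody is built of paired heavy and light chains. In each developing B cell, recombination joins V segments to joining segments, and the joined exon is then spliced to a constant region that sets the class: IgM (Ighm), IgD (Ighd), IgG (the Ighg genes) or IgA (Igha) for the heavy chain, kappa (Igkc) or lambda (the Iglc genes) for the light chain. The V segment used is therefore a mark that a clone of B cells shares. Plasma cells, the secreting end stage, fill much of their RNA with these transcripts and also make J chain (Jchain), the small protein that links IgA and IgM into polymers. The healthy brain parenchyma holds very few such cells, while the meninges harbour plasma cells, many of them making IgA.

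The germline sequences of 5 V segments are shown because their counts carry the differences between libraries described further on. Each is the last 300 bases of the V exon, 5′ to 3′ on the coding strand, from the GENCODE M21 transcripts on build GRCm38. The 3 kappa segments belong to the same family, Igkv3. Igkv3-4 (chr6:70672078-70672377, plus strand) was high in every infarct library, Igkv3-12 (chr6:70518550-70518849, plus strand) mainly in PT 1, and Igkv3-5 (chr6:70663596-70663895, plus strand) mainly in Pushen 2. Capitals in the lines of Igkv3-12 and Igkv3-5 mark the 32 and 26 bases that differ from Igkv3-4 at the same place, which is what allows reads from them to be told apart.
Igkv3-4: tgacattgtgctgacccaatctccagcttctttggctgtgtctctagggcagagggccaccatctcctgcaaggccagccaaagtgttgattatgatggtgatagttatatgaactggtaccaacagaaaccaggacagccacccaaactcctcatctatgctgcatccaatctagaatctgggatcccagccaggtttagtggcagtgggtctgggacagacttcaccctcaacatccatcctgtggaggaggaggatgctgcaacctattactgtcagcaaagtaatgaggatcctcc
Igkv3-12: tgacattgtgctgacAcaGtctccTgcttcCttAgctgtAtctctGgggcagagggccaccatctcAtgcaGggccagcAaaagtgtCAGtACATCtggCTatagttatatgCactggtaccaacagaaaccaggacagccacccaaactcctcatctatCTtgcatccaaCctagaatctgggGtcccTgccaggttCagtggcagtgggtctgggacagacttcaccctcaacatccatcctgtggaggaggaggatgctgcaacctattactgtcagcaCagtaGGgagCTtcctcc
Igkv3-5: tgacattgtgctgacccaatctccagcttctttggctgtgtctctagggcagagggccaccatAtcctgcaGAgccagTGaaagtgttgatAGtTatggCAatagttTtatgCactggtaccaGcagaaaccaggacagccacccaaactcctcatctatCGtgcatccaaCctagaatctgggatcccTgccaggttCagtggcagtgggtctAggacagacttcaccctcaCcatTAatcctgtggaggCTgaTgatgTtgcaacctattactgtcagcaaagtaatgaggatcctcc

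The 2 heavy segments were the most counted of their locus. Ighv1-9 (chr12:114583569-114583868, minus strand) belongs to the largest family, Ighv1, and Ighv3-6 (chr12:114288152-114288451, minus strand) is the only Ighv3 member. Capitals mark the codon of the second conserved cysteine of the V domain, after which 6 and 8 germline bases remain before recombination adds the rest of the variable exon.
Ighv1-9: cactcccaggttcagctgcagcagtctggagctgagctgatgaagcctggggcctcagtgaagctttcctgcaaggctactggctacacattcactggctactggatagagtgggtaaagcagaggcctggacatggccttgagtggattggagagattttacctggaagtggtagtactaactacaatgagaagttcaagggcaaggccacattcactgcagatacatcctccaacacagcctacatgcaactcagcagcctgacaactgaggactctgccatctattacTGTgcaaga
Ighv3-6: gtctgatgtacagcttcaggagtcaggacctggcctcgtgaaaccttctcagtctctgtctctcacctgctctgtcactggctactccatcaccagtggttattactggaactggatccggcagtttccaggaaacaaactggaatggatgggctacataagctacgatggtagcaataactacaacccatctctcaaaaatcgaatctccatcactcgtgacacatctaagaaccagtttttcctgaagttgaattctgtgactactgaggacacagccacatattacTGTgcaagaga

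V segments of a locus are similar to each other, and how the authors' counting treated reads that match several is not given in the sources at hand. Transcripts of all 102 V members were compared. The closest other member had a median identity of 91.2% (lowest 57.2%, highest 98.7%), and 19 members had a relative at 95% or more. Stretches of 75 bases found letter for letter in another member were absent from 46 of the 102, and 2 shared at least 50% of their stretches. Igkv3-4 shared 3.15% of its 75-base stretches with another member, Igkv3-12 shared 28.8% and Igkv3-5 shared 31.5%, whereas Ighv1-9, Ighv3-6, Igkv15-103 and Igkv5-43 shared none. Values of single segments in large families are therefore uncertain to that extent. Of the 130 rows for V pseudogenes, 7 had a count, and the highest total was 7.

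The constant regions lie in 3 gene clusters, apart from Jchain. On chromosome 12, minus strand, Ighm (chr12:113418558-113422730) lies nearest the V segments, followed by Ighd (chr12:113406604-113416324), Ighg3 (chr12:113356224-113361232), Ighg1 (chr12:113325240-113330523), Ighg2b (chr12:113302965-113307933), Ighg2c (chr12:113285325-113288932) and Igha (chr12:113254830-113260236). The V members of that locus span chr12:113588267-116000461. Igkc (chr6:70726435-70726966, plus strand) follows its V segments, chr6:67555497-70704177. Iglc1 (chr16:19061618-19062071), Iglc3 (chr16:19065230-19065681) and Iglc2 (chr16:19198396-19200351) lie on the minus strand of chromosome 16, and Jchain (chr5:88519809-88527891, minus strand) lies apart. Ighg2b and Ighg2c were 86.7% identical and Iglc2 and Iglc3 94.3%, so reads may be split within those pairs. Igkc overlaps Gm30211 (27 counts in all), Iglc2 overlaps the joining segment Iglj2 (9 counts), and Iglc1 and Iglc3 overlap the antisense gene 2010309G21Rik (0 counts).

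Total counts ran from 57437342 to 75100133 per library. The deposited counts may not be single reads throughout: among all genes 14060 values equal 4, against 5142 equal to 3 and 2709 equal to 5, and among the antibody rows 70 equal 4, against 12 and 14. Intervals on shares were therefore computed with 4 counts as 1 fragment. PT 1 and Pushen 2 stood apart in genes of the choroid plexus, the tissue that secretes cerebrospinal fluid: the 8 listed markers summed to 552 and 634 FPKM (fragments scaled to transcript length and library size) there, 153 in Pushen 3 and 3.84 to 51.0 in the other 6. Pushen 3 held the fewest antibody counts of the infarct libraries. Markers of photoreceptors, checked because the labels' extraction text names retina, summed to between 0.41 and 0.71 FPKM, and those of cortical neurons to between 478 and 870.

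Antibody transcripts were scarce in sham tissue and abundant around the infarct. All 114 members together took 55.7, 42.3 and 49.3 of every 1000000 counts (CPM) in Sham 1, 2 and 3. They took 530, 523 and 607 in the PT libraries and 672, 941 and 168 in the Pushen libraries. Every infarct library thus lay above every sham library, the PT libraries were close to each other, and the Pushen libraries spread below and above them. The group means were 49.1 ± 6.71 (SD, n = 3) for Sham, 553 ± 46.6 for PT and 593 ± 392 for Pushen. The mean of PT was 11.3 times that of Sham on CPM and 23.7 times on summed FPKM. In bulk tissue, more antibody-making cells and more antibody RNA per cell cannot be told apart.

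Igha, the constant region of IgA, had the most counts of any member. It gave 25, 66 and 104 counts in the sham libraries, 8986, 15653 and 8366 in the PT libraries and 13941, 20520 and 3371 in the Pushen libraries. The sham libraries did not overlap either infarct group. Per length, Igha rose from 0.30 ± 0.19 FPKM in Sham to 50.9 ± 15.3 in PT and 63.2 ± 39.7 in Pushen (SD, n = 3 each). The log2 fold change was 7.31 ± 0.75 (SE) for PT against Sham, with an adjusted p of 0.000489 from the quasi-likelihood test of edgeR after Benjamini-Hochberg correction. For Pushen against Sham it was 7.61 ± 0.76, with an edgeR adjusted p of 0.00059.

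Igkc, the kappa constant region, also kept the sham libraries apart from all infarct libraries. It had 64, 24 and 133 counts in Sham, 8051, 9183 and 9581 in PT, and 9458, 15551 and 2169 in Pushen. Pushen 3, the lowest infarct library, still held more than 10 times the count of the highest sham library. The rise was 6.84 ± 0.81 on the log2 scale in PT (edgeR adjusted p = 0.000688) and 6.92 ± 0.82 in Pushen (edgeR adjusted p = 0.000953).

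Jchain had 58, 43 and 113 counts in Sham, 1694, 1905 and 810 in PT, and 825, 3734 and 527 in Pushen, again with no overlap. Its log2 fold change was 4.25 ± 0.73 in PT (edgeR adjusted p = 0.00317) and 4.49 ± 0.73 in Pushen (edgeR adjusted p = 0.00387). J chain RNA was thus higher in both infarct groups, as Igha was, but the order of infarct libraries differed between the genes. Pushen 1 held 13941 counts of Igha and 825 of Jchain, where PT 1 held 8986 and 1694. Pigr, the epithelial receptor that carries polymeric IgA and IgM across a cell layer, was at 0 to 0.16 FPKM in every library and was not tested.

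The IgG genes were at lower levels and less even. Ighg2c, the IgG2c heavy chain, had 260, 272 and 321 counts in Sham, 2214, 1387 and 1975 in PT, and 2371, 5313 and 444 in Pushen. Its rise was 2.64 ± 0.66 on the log2 scale in PT (edgeR adjusted p = 0.0169) and 3.21 ± 0.67 in Pushen (edgeR adjusted p = 0.0124). Without Sham 1 or without Sham 2 these calls were lost, with adjusted p between 0.0559 and 0.0629. Ighg2b had 0, 0 and 21 counts in Sham, 620, 338 and 711 in PT, and 958, 1733 and 129 in Pushen, and passed in both comparisons (edgeR adjusted p = 0.00634 and 0.00598).

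Ighg1 had 0, 4 and 4 counts in Sham, 26, 110 and 208 in PT, and 428, 1063 and 0 in Pushen. The single zero in Pushen 3, whose heavy constant counts sum to 6268, allows a share of up to 0.191% for Ighg1 at 3 fragments. Ighg1 did not pass in PT against Sham (log2 fold change 5.34 ± 1.92, edgeR adjusted p = 0.0632) and passed in Pushen against Sham (7.43 ± 1.96, edgeR adjusted p = 0.0328). DESeq2 called it in PT against Sham (adjusted p = 0.0241), and the edgeR call in Pushen against Sham was lost in 9 of 19 alternatives. Ighg3 (8, 6 and 0 counts in Sham, 0, 28 and 128 in PT, 163, 376 and 33 in Pushen) fell under the expression filter and was not tested. In both Ighg1 and Ighg3, Pushen 1 and 2 exceeded every PT library and Pushen 3 did not.

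The lambda constant regions were rare beside kappa. Iglc1 had 0, 4 and 0 counts in Sham, 59, 108 and 115 in PT, and 107, 177 and 58 in Pushen, and passed in both comparisons (edgeR adjusted p = 0.00129 and 0.00155). Iglc2 had 0, 4 and 8 counts in Sham, 52, 23 and 117 in PT, and 63, 91 and 19 in Pushen. It also passed in both (edgeR adjusted p = 0.0172 and 0.0309), and the calls were lost in 2 and 6 of 19 alternatives. Iglc3 (4, 0 and 6 counts in Sham, 21, 14 and 37 in PT, 44, 17 and 0 in Pushen) was not tested. The kappa share of light-chain constant counts was between 97.3% and 98.4% in PT and between 96.6% and 98.2% in Pushen, so kappa dominated in every infarct library.

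Ighm, the IgM heavy chain, was the exception among the abundant genes, because sham tissue already held it. It had 3237, 2608 and 2570 counts in Sham, 7662, 3106 and 8464 in PT, and 2377, 2658 and 2268 in Pushen. As CPM, PT 1 and PT 3 were at 108 and 131, PT 2 was at 41.4, and Sham 1 was at 48.5. PT 2 therefore lay inside the sham range, and so did the Pushen libraries, at 41.4, 36.2 and 36.5. The log2 fold change of PT against Sham was 1.14 ± 0.35 (edgeR adjusted p = 0.0376). The call was lost in 11 of 19 alternatives, with log2 fold changes between 0.54 and 1.5 and adjusted p up to 0.245, and without PT 3 it fell to 0.80 (adjusted p = 0.108). Pushen against Sham gave -0.17 ± 0.35 (edgeR adjusted p = 0.772). Ighd, which resting B cells splice together with Ighm, stayed at 0.10 to 0.46 FPKM in all libraries and was not tested.

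**Figure D1:**
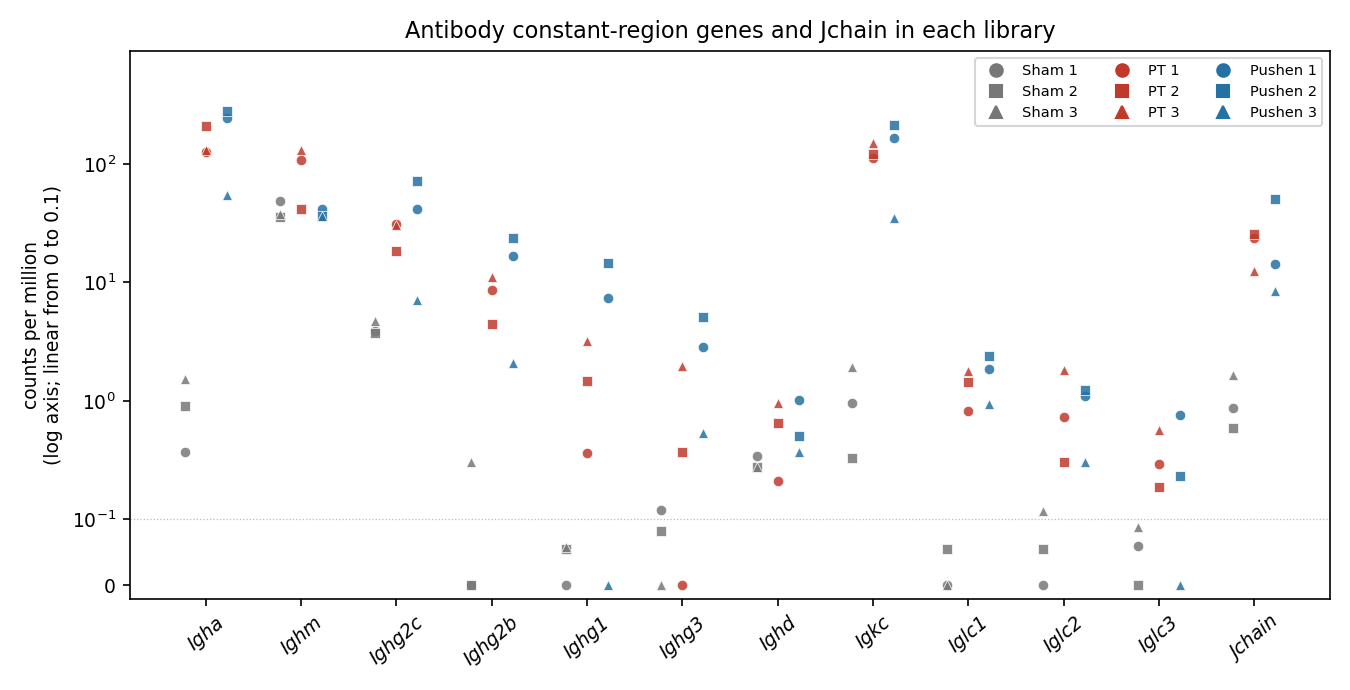
CPM, counts per 1000000 (log axis, linear between 0 and 0.1) of the 11 constant-region genes and Jchain; each point is a library, colour gives the group and shape the replicate number. Igha and Igkc of all infarct libraries sit far above the sham libraries, from 34.9 to 279 CPM against at most 1.95, while Ighm of PT 2 and of the 3 Pushen libraries lies among the sham points.

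Of the 114 members, 103 passed the expression filter (0.5 FPKM or more as the mean of the 9 libraries) and were tested. PT against Sham called 76 of them higher and none lower, where 19.1% of all 16740 tested genes were called higher. Pushen against Sham called 66 higher, where 13.5% of all tested genes were. These counts describe the members only, since the total that chose them is itself set by the infarct libraries. They also rest on few sham counts: 75 members, all of them V segments, had no count in any sham library. Leaving out Sham 1 or Sham 2 lowered the count in PT to 44 and 46 and that in Pushen to 38 and 37. The share of all tested genes called, in either direction, also fell, from 30.9% to 19.1% and 20.1% in PT. In Pushen that share fell from 16.2% to 9.92% and 9.19%. Leaving out Pushen 3 raised the Pushen count to 87, where 19.9% of all tested genes were called. The log2 fold changes of V segments with no sham count depend on the prior count of the model and are not given.

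Pushen was set against PT to ask whether the antibody genes differed between treated and untreated infarcts. edgeR called 0 of the 103 tested members, and 0% of all 16740 genes. At an unadjusted p under 0.05 stood 5 members and 1086 genes in all. The median log2 difference over the members was 0.24. Without Pushen 3 it was 0.74 and without Pushen 2 it was -0.64, so its direction turned on which Pushen library was present. The spread among the Pushen libraries left wide limits on each difference: 0.30 ± 0.55 (SE) for Igha, 0.08 ± 0.61 for Igkc, 0.25 ± 0.62 for Jchain, 0.57 ± 0.62 for Ighg2c, 0.79 ± 0.88 for Ighg2b, 2.10 ± 1.37 for Ighg1, 0.35 ± 0.56 for Iglc1 and -0.12 ± 0.79 for Iglc2, with edgeR adjusted p between 0.718 and 0.975. These intervals do not show that the groups were alike.

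Ighm was the member of smallest p in that comparison. PT 1 and PT 3 were above all Pushen libraries, and PT 2 was level with Pushen 1 at 41.4 CPM. The log2 difference was -1.31 ± 0.35 for Pushen against PT. edgeR gave an unadjusted p of 0.00502 and an adjusted p of 0.707. DESeq2 gave a log2 difference of -1.30 with an adjusted p of 0.0421, and it called 0.287% of 16707 genes in this comparison, Ighm being the only member among them. Over the 19 alternatives the difference ran from -1.67 to -0.60, with adjusted p between 0.0421 and 0.987. The other 4 members with an unadjusted edgeR p under 0.05 were the V segments Igkv4-91 (log2 difference 2.12), Igkv12-41 (1.96), Ighv1-80 (1.90) and Igkv3-12 (-3.26), all at an adjusted p of 0.707. They were chosen after their values were seen.

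The class make-up of heavy-chain RNA differed between sham and infarct libraries. In Sham 1, 2 and 3, Ighm took 91.1%, 87.6% and 84.6% of the heavy-chain constant counts, Igha 0.70%, 2.22% and 3.42%, and the IgG genes 7.54%, 9.48% and 11.4%. In PT 1, 2 and 3, Igha took 46.0%, 75.7% and 42.0%, with exact (Clopper-Pearson) 95% binomial intervals of 44.6 to 47.4%, 74.5 to 76.9% and 40.6 to 43.4%. Ighm took 39.2%, 15.0% and 42.5% there. PT 1 and PT 3 thus carried near-equal shares of Igha and Ighm counts, and PT 2 mostly Igha. In Pushen 1, 2 and 3, Igha took 68.7%, 64.7% and 53.8%, and Ighm 11.7%, 8.38% and 36.2%. The leading class in PT depended on the unit. By FPKM, Igha took 36.0%, 66.9% and 32.9% in PT 1, 2 and 3 and Ighm 43.4%, 18.8% and 47.0%, so Ighm led in PT 1 and PT 3. In Pushen 1, 2 and 3, Igha took 58.8%, 53.7% and 44.0% by FPKM, and Ighm 14.2%, 9.83% and 41.8%. The intervals cover counting error only. Ighm was at 35.9 to 48.5 CPM in Sham, where the heavy V members had 8, 0 and 11 counts. PT 2 and the Pushen libraries, at 36.2 to 41.4 CPM, lay in that Ighm range. How much of each Ighm share came with a V segment was not tested.

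With Ighm set aside, PT libraries resembled each other more closely. Igha then took 75.8%, 89.1% and 73.1% of the other heavy-chain counts in PT, 77.8%, 70.7% and 84.3% in Pushen, and 7.91%, 17.9% and 22.2% in Sham. The IgG genes took 14.6%, 9.01% and 15.2% of all heavy-chain counts in PT and 19.3%, 26.8% and 9.67% in Pushen. The highest IgG shares, in Pushen 1 and 2, went with the highest counts of Ighg1 and Ighg2b. The class shares were not tested, being sums over members chosen on their counts. On the FPKM scale the mean IgA share in Pushen was 52.1%, against 62.4% on counts, since a count of Igha is worth less FPKM than a count of Ighm or Ighg2c in the authors' scaling.

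**Figure D2:**
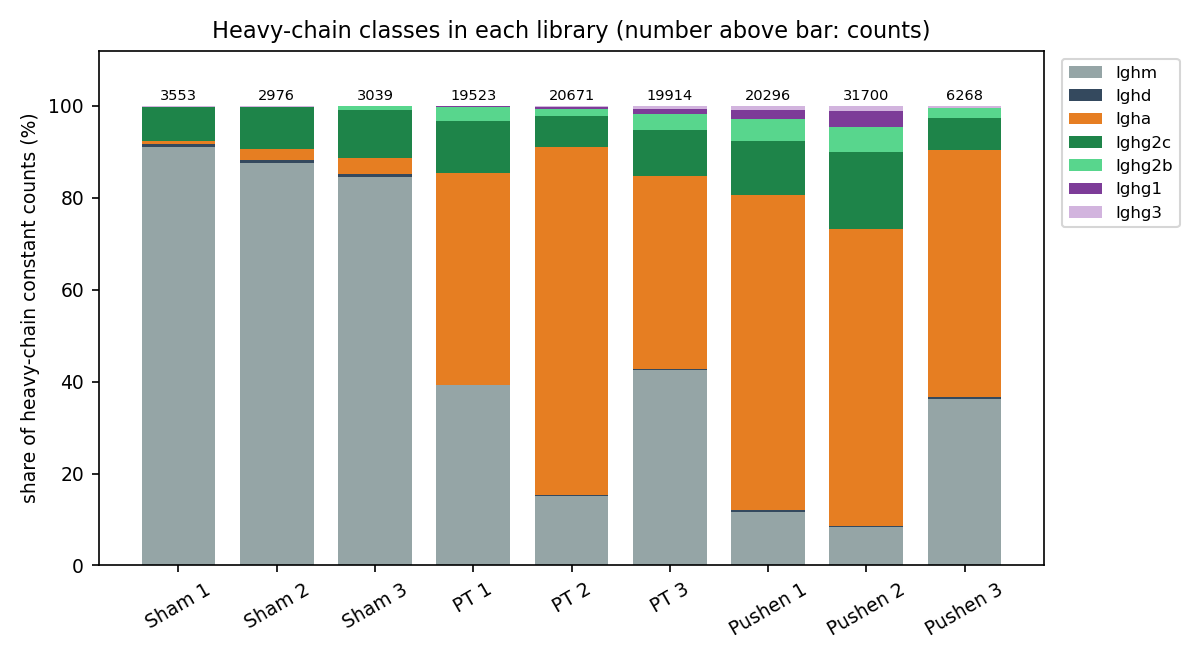
Share (%) of each class in the counts of the 7 heavy-chain constant-region genes, 1 bar per library, with the summed counts above it. Ighm fills 84.6% to 91.1% of the sham bars, while Igha takes 42.0% to 75.7% of the PT bars and 53.8% to 68.7% of the Pushen bars.

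V segment counts were low in sham libraries and high in infarct libraries, which is in part how the members were chosen: a V segment could reach the total mainly through the infarct libraries. The 44 Ighv members together had 8, 0 and 11 counts in Sham, 2980, 2485 and 2731 in PT, and 2502, 6126 and 309 in Pushen. The 56 Igkv members had 29, 19 and 52 counts in Sham, 5194, 4648 and 5500 in PT, and 4961, 11157 and 962 in Pushen. No V member exceeded 8 counts in any sham library. Sham libraries held a count in 11, 6 and 14 of the 102 V members, PT libraries in 97, 97 and 98, and Pushen libraries in 97, 101 and 59. Rows that did not reach the total were added up as well. Over every Ighv row with a count, 98 in all, there were 8, 0 and 15 counts in Sham, 3226, 2779 and 3145 in PT, and 2802, 6716 and 409 in Pushen. Over the 89 Igkv rows with a count there were 35, 19 and 52 in Sham, 5389, 4814 and 5653 in PT, and 5122, 11480 and 1018 in Pushen.

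Heavy-chain constant and V segment levels were set beside each other in each library. Per length, the heavy constant regions summed to 25.5, 19.6 and 21.4 FPKM in Sham, and the heavy V members to 0.28, 0 and 0.38 FPKM. In PT the constant regions summed to 115, 102 and 130 FPKM and the V members to 101, 79.1 and 101 FPKM. There were thus 77.3 to 87.4 FPKM of V per 100 FPKM of constant region in PT, and 1.77 at most in Sham. Pushen 1 and 2 had 76.5 and 117, and Pushen 3 had 28.5. Since a total set by infarct libraries chose the V members, the ratio was also taken over all 98 Ighv rows with a count, and was then 1.10, 0 and 2.38 in Sham, 94.1, 86.2 and 88.9 in PT, and 85.0, 128 and 37.8 in Pushen. Either way every sham library lay below every infarct library, and no test was made of it. For kappa the groups overlapped: per 100 Igkc counts there were 45.3, 79.2 and 39.1 kappa V counts in Sham, 64.5, 50.6 and 57.4 in PT, and 52.5, 71.7 and 44.4 in Pushen. Of the sham heavy constant counts, Ighm and Ighg2c made up nearly all. No other annotated gene overlaps either, and whether the counts respect strand is not stated.

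**Figure D3:**
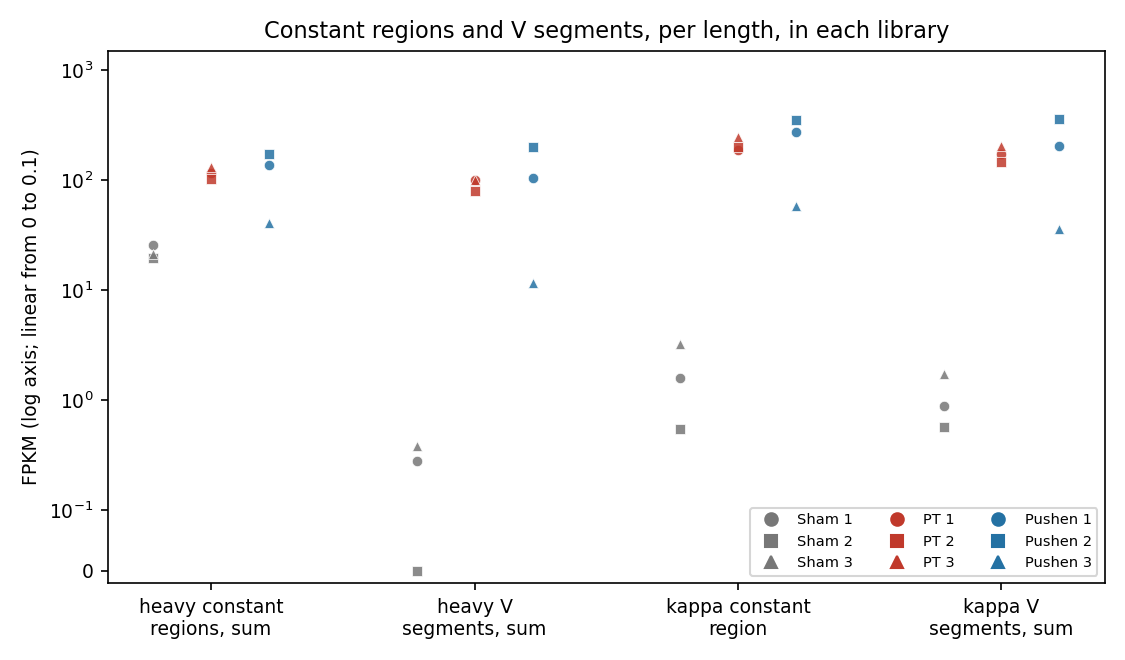
Summed FPKM (log axis, linear between 0 and 0.1) of heavy constant regions and heavy V members, and of Igkc and kappa V members, 1 point per library. Sham libraries hold 19.6 to 25.5 FPKM of heavy constant RNA with at most 0.38 FPKM of heavy V RNA, whereas the PT points for both lie between 79.1 and 130.

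Which V segments were used differed from library to library. Among kappa segments, Igkv3-4, shown above, was counted most, with 440, 570 and 332 counts in PT and 363, 1096 and 70 in Pushen, and 0 in every sham library. It took 8.47%, 12.3% and 6.04% of kappa V counts in PT and 7.32%, 9.82% and 7.28% in Pushen, so it was high in all 6. Igkv10-96 (0 sham counts, 283, 418 and 359 in PT, 263, 915 and 28 in Pushen), Igkv15-103 (0 in Sham, 156, 321 and 325 in PT, 424, 702 and 73 in Pushen) and Igkv6-15 (0, 0 and 4 in Sham, 257, 292 and 327 in PT, 278, 339 and 39 in Pushen) were also spread over libraries. Igkv6-23 (0 in Sham, 399, 307 and 98 in PT, 214, 356 and 59 in Pushen) was the fifth by total. Igkv3-4, Igkv15-103 and Igkv6-15 were in the 10 largest of all 6 infarct libraries.

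Other kappa segments belonged mostly to a single library. Igkv3-12 had 1036 of its 1238 counts in PT 1, where it was the leading kappa segment at 19.9%, and 10 to 53 in the other infarct libraries. Igkv3-5 had 914 of its 1089 counts in Pushen 2. Igkv5-43 led in PT 3 with 10.2% of kappa V counts, at 560 of its 870 counts. The leading kappa segment was Igkv3-4 in PT 2 and Pushen 2 and Igkv15-103 in Pushen 1 at 8.55%. In Pushen 3 Igkv1-117, at 77 counts, Igkv15-103, at 73, and Igkv3-4, at 70, lay within 7.28% to 8.0%, too close to order at this depth, and Igkv3-4 led by FPKM at 7.68%. Igkv3-4, Igkv3-12 and Igkv3-5 are thus relatives that differed in the libraries where they were high; across the full transcripts Igkv3-4 was 90.1% identical to Igkv3-12 and 86.8% to Igkv3-5. Igkv3-12 is nearer to Igkv3-7, at 96.7%. Igkv3-5 leads in no library and was picked out after its values were seen.

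Heavy segments showed the same mixture. Ighv1-9 had 4, 0 and 0 counts in Sham, 212, 148 and 111 in PT, and 253, 609 and 44 in Pushen. It alone was in the 10 largest of all 6 infarct libraries, and it led in Pushen 2 at 9.94% and in Pushen 3 at 14.2%. Ighv3-6 had 0, 0 and 7 counts in Sham, 728, 168 and 223 in PT, and 79, 158 and 7 in Pushen. It took 24.4% of heavy V counts in PT 1 and led in PT 2 at 6.76%, above its share in every Pushen library, of 3.16% at most. Ighv1-80 led in Pushen 1 at 12%, with 66, 32 and 89 counts in PT and 301, 326 and 40 in Pushen. Ighv4-1 led in PT 3 at 9.92%. Ighv9-3 (140, 137 and 68 counts in PT, 153, 584 and 0 in Pushen) and Ighv8-8 (81, 20 and 122 in PT, 188, 361 and 26 in Pushen) completed the 5 of highest total.

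The lambda V members were Iglv1, with 4, 0 and 0 counts in Sham, 161, 199 and 254 in PT and 300, 528 and 77 in Pushen, and Iglv3, with 0, 3 and 0 in Sham, 0, 8 and 64 in PT and 34, 50 and 22 in Pushen. Iglv1 was present in every infarct library and Iglv3 in 5 of the 6. Lambda segments took 3.01%, 4.26% and 5.47% of light-chain V counts in PT and 6.31%, 4.93% and 9.33% in Pushen. Kappa thus predominated among V counts as it did among constant-region counts.

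**Figure D4:**
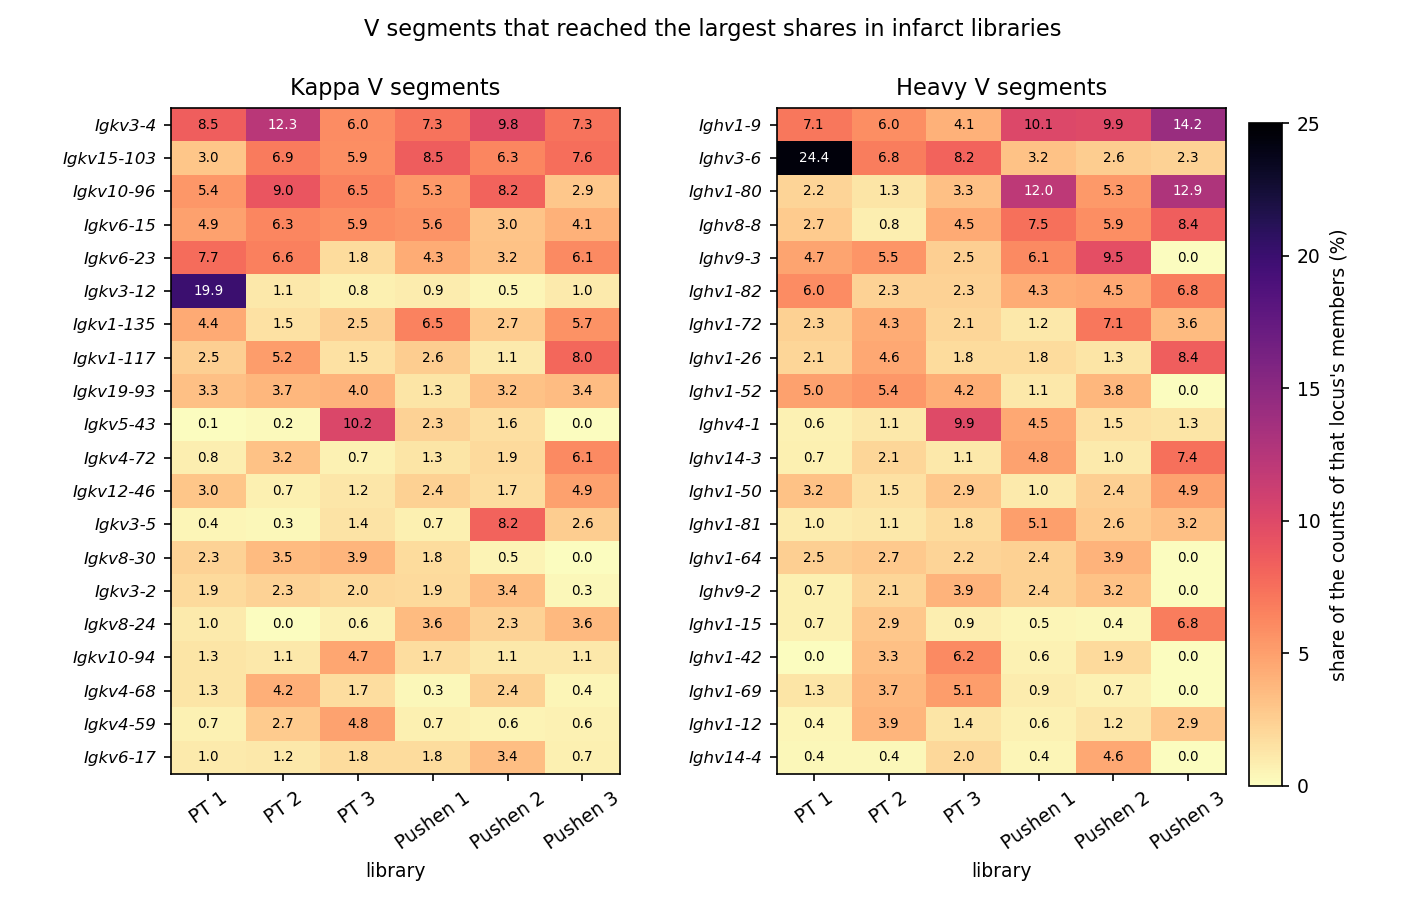
Share (%) of each V segment in the counts of the kappa members (left) and of the heavy members (right) in the 6 infarct libraries, for the 20 segments of each locus that reached the largest share in any of them. Igkv3-4 is present at 6.04% to 12.3% throughout, while Igkv3-12 reaches 19.9% and Ighv3-6 24.4% in PT 1.

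Over all 102 V members, the leading library held a median of 40.9% of a segment's counts after scaling for library size (lowest 22.3%, highest 82.9%). In 21 members it held more than 50%. Of these 21, Pushen 2 led 10, PT 3 led 5, PT 1 led 4, and PT 2 and Pushen 1 led 1 each. The scaling was not to the antibody level, which was highest in Pushen 2 (941 CPM) and lowest, among infarct libraries, in Pushen 3 (168). Which library led, and by how much, therefore depends on that level as well as on the segments used. A count in every infarct library was found for 53 members, and for 85 with Pushen 3 left aside. The 10 largest kappa segments of the 6 libraries made up 24 segments, of which 12 appeared for a single library. For the heavy locus they made up 28, of which 13 appeared for a single library.

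The rank of segments was shared in part between libraries. Across the 56 kappa members, Spearman's rho between pairs of PT libraries was 0.33 to 0.53 (median 0.51), between pairs of Pushen libraries 0.53 to 0.66 (median 0.57), and between a PT and a Pushen library 0.29 to 0.57 (median 0.45). Across the 44 heavy members the medians were 0.31, 0.34 and 0.30. These correlations are across segments, which are not independent replicates and share each library's depth. Pairs within a group and pairs across groups overlapped in range.

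Diversity was summarised by the inverse Simpson index, the number of equally used segments that would give the same concentration. For kappa it was 14.7, 20.1 and 24.8 in PT and 27.7, 24.7 and 22.4 in Pushen. For heavy chains it was 11.8, 28.9 and 24.3 in PT and 19.2, 21.8 and 13.1 in Pushen. PT 1, with Igkv3-12 and Ighv3-6 high, had the lowest index at both loci. The 5 largest kappa segments took 46.5%, 41.1% and 34.6% of kappa V counts in PT and 33.2%, 35.9% and 35.1% in Pushen. A plasma cell holds far more antibody RNA than a resting B cell, so these indices describe RNA and not numbers of cells.

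Segments were also summed by family. Ighv1, with 27 members, took between 51.9% and 79.3% of heavy V counts in the infarct libraries. Among kappa families, Igkv6 with 8 members took 17.8%, 19.6% and 15.3% in PT and 17.7%, 13.1% and 17.5% in Pushen. Igkv3 with 7 members took 32.2%, 17.7% and 13.9% in PT and 14.0%, 25.5% and 15.2% in Pushen, its high values falling in the libraries with high Igkv3-12 and Igkv3-5. Igkv4, with 11 members, lay between 9.15% and 13.6%. The kappa locus holds segments in either orientation, and those on the minus strand (33 of 56 members) took between 47.6% and 65.9% of kappa V counts in the infarct libraries.

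The promoter table at hand (RefSeq, 250 bases before to 50 after each start) held 1 member, Jchain. The octamer ATGCAAAT, known from V segment promoters, was searched on both strands (ATTTGCAT on the other). It was not found in the Jchain window, and 1.74% of the 32851 promoters held it.

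Genes that mark B cells were low in all libraries. Of 12 listed surface and identity genes, 2 passed the filter. Both rose in PT, where 19.1% of all tested genes rose, and in Pushen, where 13.5% rose. Among those not tested, Bank1, a B cell scaffold protein, was at 0.16 ± 0.03 FPKM in Sham, 0.17 ± 0.03 in PT and 0.14 ± 0.02 in Pushen (SD, n = 3 each), and the receptor Fcer2a was at 0.36 ± 0.06, 0.34 ± 0.15 and 0.31 ± 0.03. The complement receptor Cr2 was at 0.01 to 0.06 in every library. Cd22, an inhibitory receptor of B cells that microglia can also make, was at 0.02, 0.03 and 0.10 FPKM in Sham, 3.05, 2.57 and 2.19 in PT, and 2.57, 2.83 and 0.70 in Pushen (log2 fold change in PT 5.61 ± 0.66, edgeR adjusted p = 0.000668). Cd79a, which signals for the B cell receptor, was at 0.07, 0.20 and 0.35 in Sham, 0.92, 1.5 and 1.83 in PT, and 1.67, 1.06 and 0.64 in Pushen (2.69 ± 0.56, edgeR adjusted p = 0.00759). The defining marker Ms4a1 (0 to 0.02 FPKM in Sham, 0 to 0.13 in the infarct groups) was near 0 and was not tested. Summed, the list was at 0.96 to 1.56 FPKM in Sham, 5.86 to 6.90 in PT and 2.32 to 6.60 in Pushen, where the antibody constant regions and Jchain summed to 20.5 to 27.5, 313 to 388 and 103 to 545. In PT 1, Cd22 alone gave 3.05 of the 5.86 FPKM.

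Of 12 listed genes of the plasma cell secretory programme, 6 were tested. In PT 3 rose and 1 fell, where 19.1% of all tested genes rose and 11.8% fell. Sdc1, the syndecan used as a plasma cell marker, was at 0.19, 0.22 and 0.23 FPKM in Sham, 2.48, 2.43 and 1.90 in PT, and 1.93, 2.88 and 0.83 in Pushen (3.32 ± 0.40, edgeR adjusted p = 0.000713). Which cells made Sdc1 was not tested. Pou2af1, a coactivator at octamer promoters in B cells, was at 0.12, 0.04 and 0.04 in Sham, 0.81, 0.64 and 0.85 in PT, and 0.90, 0.95 and 0.20 in Pushen (3.48 ± 0.66, edgeR adjusted p = 0.00497). Xbp1, the transcription factor of secretory cells, rose by 0.37 ± 0.11 (edgeR adjusted p = 0.0388), from a level of 9.52 to 9.94 FPKM in Sham. Ell2, an elongation factor that favours secreted heavy chains, fell by 0.39 (edgeR adjusted p = 0.0291). Mzb1, a chaperone of IgM and J chain assembly, was at 0.02 to 0.04 FPKM in Sham, 0.45 to 0.76 in PT and 0.09 to 0.78 in Pushen and was not tested. Prdm1, also untested, was at 0.21 to 0.26 in Sham and 0.27 to 0.60 in the infarct libraries. The other untested genes of the list overlapped Sham. Irf4 was at 0.10 to 0.17 in Sham and 0.14 to 0.30 in the infarct libraries, and Derl3 at 0.14 to 0.31 and 0.10 to 0.51. Fkbp11 was at 0.13 to 0.24 and 0.20 to 0.50, and Tnfrsf17 at 0 to 0.09 and 0 to 0.63.

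The genes of the V segment recombinase were near 0. Rag2 was listed at 0 in all 9 libraries, and Rag1 was between 0.01 and 0.07 FPKM. Of 12 listed germinal centre and recombination genes, 3 were tested and all 3 rose in PT: Fas, the death receptor (2.02 ± 0.32), S1pr2, a sphingosine phosphate receptor (2.20 ± 0.29), and Bcl6, the germinal centre repressor (0.47 ± 0.10), with edgeR adjusted p of 0.00206, 0.00106 and 0.00839. These 3 genes are also made by other cells of inflamed tissue, and 19.1% of all tested genes rose in PT.

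Of 15 listed genes that hold and attract B cells, 7 were tested, and 4 of them rose in PT, where 19.1% of all tested genes rose. Cxcr4, the receptor by which plasma cells find their niches, rose from 0.15, 0.32 and 0.53 FPKM in Sham to 10.4, 8.01 and 8.60 in PT and was at 8.22, 7.04 and 1.72 in Pushen (4.68 ± 0.62, edgeR adjusted p = 0.00102). Which cells made Cxcr4 was not tested. Its ligand Cxcl12 rose in PT by 0.76 ± 0.21 (edgeR adjusted p = 0.0226) and did not pass in Pushen (0.60 ± 0.21, edgeR adjusted p = 0.0812). Ltb, a lymphotoxin subunit, rose by 3.97 ± 0.49 (edgeR adjusted p = 0.000764), and Tnfrsf13b, the receptor TACI for the survival factors BAFF and APRIL, by 1.56 ± 0.50 (edgeR adjusted p = 0.0428). Tnfsf13, which encodes APRIL, did not pass (0.92 ± 0.38, edgeR adjusted p = 0.0948). Of the chemokines that draw lymphocytes, Ccl19 (1.09 ± 0.39, edgeR adjusted p = 0.0626) and Ccl21a (0.85 ± 0.62, edgeR adjusted p = 0.328) did not pass in PT either. In Pushen against Sham, Ccl19 passed (1.77 ± 0.39, edgeR adjusted p = 0.0155) and Ccl21a did not (1.31 ± 0.62, edgeR adjusted p = 0.185). Cxcl13, the chemokine that attracts B cells, was listed at 0 in the sham libraries and at 0.50 to 0.95 FPKM in the infarct libraries, and fell under the filter. Other genes under the filter were mixed. Ccr7 (0.07 to 0.20 in Sham, 0.26 to 0.73 in the infarct libraries) and Tnfsf13b (0.07 to 0.13, 0.17 to 0.35) did not overlap Sham. Overlap was seen for Cxcr5 (0 to 0.03, 0 to 0.10), Lta (0.16 to 0.20, 0.19 to 0.38), Il21 (0 to 0.03, 0.02 to 0.03), Il6 (0 to 0.02, 0 to 0.21) and Tnfrsf13c (0.12 to 0.19, 0.09 to 0.35).

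Receptors that bind antibody were also higher. Of 10 listed, 7 were tested, and all 7 rose in PT and in Pushen, where 19.1% and 13.5% of all tested genes rose. The medians over the 7 were 3.49 and 3.33, where the median over all tested genes was 0.00 and -0.01. Fcgr4, an activating receptor for IgG2, was at 0.04, 0.04 and 0.19 FPKM in Sham, 7.35, 5.21 and 4.82 in PT, and 7.43, 9.84 and 2.28 in Pushen (5.91 ± 0.72, edgeR adjusted p = 0.000752). Fcgr2b, the inhibitory IgG receptor, rose by 4.22 ± 0.38 (edgeR adjusted p = 0.000446), Fcer1g, the shared signalling chain, by 3.49 ± 0.34 (edgeR adjusted p = 0.000461), and Fcgrt, the neonatal receptor that protects IgG from breakdown, by 1.68 ± 0.17 (edgeR adjusted p = 0.000467). Most of these receptors are known from microglia and macrophages. The receptors for IgM and IgA, Fcmr (0.03 to 0.27 FPKM) and Fcamr (0 to 0.02), were low in every library.

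**Figure D5:**
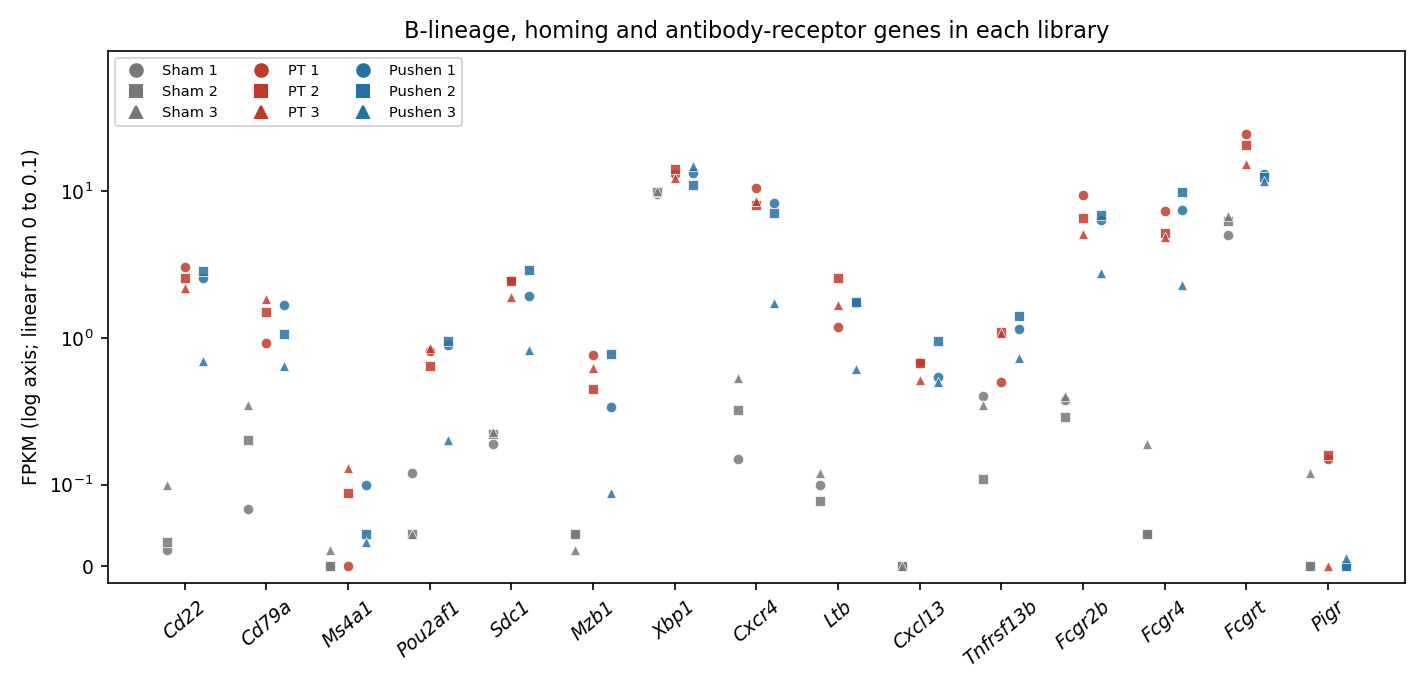
FPKM (log axis, linear between 0 and 0.1) of 15 genes of B cells, plasma cells, homing and antibody receptors, 1 point per library. Cd22, Sdc1, Cxcr4 and Fcgr4 separate infarct from sham libraries, Ms4a1 and Pigr stay at or below 0.16 FPKM, and Pushen 3 is the lowest infarct library for Cd22, Sdc1, Cxcr4 and Fcgr4.

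Markers of other tissues that could carry antibody RNA were set beside these results. Of 8 meningeal fibroblast genes, all 8 rose in PT and in Pushen, where 19.1% and 13.5% of all tested genes rose. Summed, these 8 were at 22.4 to 26.2 FPKM in Sham, 104, 95.1 and 80.5 in PT and 90.3, 108 and 60.4 in Pushen. They were therefore lowest, among infarct libraries, in Pushen 3, where antibody counts were also lowest. The largest rises were those of Lum (4.29 ± 0.45) and Dcn (3.83 ± 0.36), extracellular matrix proteoglycans that fibroblasts of a scar also make. Their part in the antibody result was not tested.

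Red blood cell genes mark blood left in the tissue. Of 5, none was called against Sham by edgeR (adjusted p between 0.603 and 0.936 in PT and between 0.3 and 0.459 in Pushen), and they summed to 199, 149 and 108 FPKM in Sham, 46.1, 121 and 224 in PT, and 39.0, 126 and 107 in Pushen. PT 1 and Pushen 1, with the lowest of these sums, held 530 and 672 CPM of antibody counts, and PT 3, with the highest, held 607. Of 7 tested choroid plexus genes 3 rose in PT, Aqp1 (4.88 ± 0.74, edgeR adjusted p = 0.00177), Kcnj13 and Clic6, where 19.1% of all tested genes rose. Summed, the list was highest in PT 1 and Pushen 2, with 530 and 941 CPM of antibody counts. PT 2 and PT 3, at 24.3 and 51.0 FPKM of the list, held 523 and 607 CPM. Without PT 1 and Pushen 2, 67 members were called higher in PT and 42 in Pushen. In either direction, 20.7% and 12.2% of all tested genes were then called. The part of blood and of choroid plexus in the antibody result was not tested. Of 10 listed T cell genes, 4 were tested and 2 rose in PT, where 19.1% of all tested genes rose. They were Trac, the T cell receptor alpha constant region (3.42 ± 0.58, edgeR adjusted p = 0.00312), and Cd4 (3.36 ± 0.70, edgeR adjusted p = 0.00755), which macrophages and microglia may also make. Cd4 was at 7.15, 2.05 and 1.02 FPKM in PT. The beta constant regions Trbc1 (1.23 ± 0.87, edgeR adjusted p = 0.307) and Trbc2 (-0.53 ± 0.28, edgeR adjusted p = 0.186) did not pass. Summed, the list was at 16.5 to 17.3 FPKM in Sham, of which Trbc2 gave 14.8 to 16.3, and at 14.5 to 24.0 in PT. The listed T cell genes under the filter were low and not tested. Cd3d was at 0 FPKM in Sham and 0.19 to 0.82 in the infarct libraries, and Cd3e at 0.01 and 0.15 to 0.37. Cd3g was at 0 to 0.04 and 0.32 to 0.58, Cd8a at 0 to 0.04 and 0.30 to 0.64, and Cd8b1 at 0 and 0.27 to 0.58. Icos, at 0.03 to 0.05 and 0.05 to 0.19, was level with Sham 1 in Pushen 3. In Pushen against PT, edgeR called no gene of any of these lists, the lowest adjusted p being 0.707.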

How the data were processed

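RNA libraries were made with an Illumina TruSeq kit (labels' protocols). Counts for each gene and library were deposited, with FPKM that the authors scaled by gene length and library size. The counter, and what it did with reads matching several genes, is not given in the sources used here. Bowtie 0.12.2 and build mm8 are named per the submitters' processing notes, but all 114 members, and 94.2% of the shared genes, have the coordinates of GENCODE M21 on GRCm38, used here for sequences.

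All 9 libraries were fitted together with edgeR 4.0.16 (R 4.3.3; quasi-likelihood test, trimmed-mean scaling) over the 16740 genes whose mean FPKM reached 0.5. Benjamini-Hochberg adjustment ran over all of them, and an adjusted p under 0.05 was called. SE is the log2 difference over the root of F. Alternatives used DESeq2 1.42.0, limma 3.58.1, other filters, scalings and members, and omission of libraries; omission of PT 1 with Pushen 2, counts divided by 4, and sums over all V rows with a count, were chosen after seeing the data. Shares and sums were given without a test. Libraries of a group differed by more than counting noise (chi-square per gene 35.0 to 118; 8.76 to 29.5 with counts divided by 4), so none was a copy.

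The members and gene lists were chosen with earlier results of these data known. Named were all constant regions and Jchain, the 5 V segments of largest total in Ighv and Igkv, both Iglv members, the leading segment of each infarct library, and up to 4 genes of smallest p per list. Genes under the filter (Ms4a1, Mzb1, Rag1, Rag2, Cxcl13, Pigr, Fcmr, Fcamr, Bank1, Fcer2a, Cr2), Tnfsf13, Ccl19, Ccl21a, Fcgr4, Lum and Dcn were added after their values were seen. So were the other untested plasma cell, homing and T cell genes (Prdm1, Irf4, Derl3, Fkbp11, Tnfrsf17, Ccr7, Tnfsf13b, Cxcr5, Lta, Il21, Il6, Tnfrsf13c, Cd3d, Cd3e, Cd3g, Cd8a, Cd8b1, Icos). Some listed genes are not reported here. 0 value columns were left unmatched to a sample.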

Additional observations from a re-analysis of the deposited data

How the results depend on the processing

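The number of members called higher in PT against Sham was 76, and 44 to 92 with each library left out in turn. Of all tested genes, 30.9% were called in either direction there, and 19.1% to 34.6% with each library left out. The number of members in Pushen against Sham was 66, and 37 to 87 with each library left out in turn. Without PT 1 and Pushen 2 it was 42. The share of all tested genes was 16.2% there, 9.19% to 22.3% with each library left out, and 12.2% without PT 1 and Pushen 2. In Pushen against PT the number of members was 0 with edgeR, 0 with each library left out, and 1 (Ighm) with DESeq2. With the replicate number as a block (replicate block), the counts were 67 in PT against Sham, 48 in Pushen against Sham and 0 in Pushen against PT. The shares of all tested genes were then 25.5%, 12.6% and 0%. Same-numbered libraries had correlations of their deviations between -0.22 and 0.10. That gave no sign of pairing, but deviations from means of 3 libraries cannot exclude it. The total antibody level of PT was 11.3 times that of Sham as CPM and 23.7 times on FPKM. Summed by family, the largest kappa share was 22.3% in PT and 20.2% in Pushen, the kappa inverse Simpson index 8.06 and 8.80, and the heavy index 2.55 and 2.17. With every segment that had a count, the heavy index in Pushen was 22.7. The IgA share in Pushen was 52.1% by FPKM. Of 513 comparisons of single constant-region genes with an alternative, 477 kept their side of the threshold, 32 lost a call and 4 gained one, and none changed the sign of a called difference.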
